A study of Mus musculus with 16 samples.

Results

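The sphingosine 1-phosphate (S1P) system was examined in endothelial cells of the mouse heart through 7 genes, taken by symbol from a table of 43629 genes. They were the receptor genes S1pr1, S1pr2 and S1pr3, the kinase genes Sphk1 and Sphk2, the exporter gene Spns2 and the lyase gene Sgpl1, and all 7 passed the filter on low values. RNA had been sequenced from 16 libraries of C57BL/6J mice of 8 to 10 weeks, 6 days after tamoxifen, from cells captured on magnetic beads against CD31, a surface protein of endothelium. The 4 groups of 4 libraries were Cre controls, mice with endothelial deletion of Klf2 (K2KO), of Klf4 (K4KO) and of both (DKO). All groups, controls included, had received tamoxifen and are given as carrying Cre or an endothelial deletion, and each library pooled 2 mice. The sources used here name neither the promoter that drives Cre nor the floxed alleles. Klf2 and Klf4 encode Krüppel-like zinc finger transcription factors, which endothelial cells express more under laminar blood flow.

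S1P is a lipid signal made inside the cell when a sphingosine kinase phosphorylates sphingosine. Endothelial cells release it through the exporter Spns2, and it then acts on G protein-coupled receptors on the same or neighbouring cells. S1pr1 couples to the inhibitory G protein and supports endothelial junctions, whereas S1pr2 and S1pr3 also couple to other classes of G protein. S1P is removed by phosphatases, which return it to sphingosine, or by the lyase Sgpl1, which cleaves it irreversibly. Klf2 is known to activate S1pr1 transcription in T cells, and KLF proteins bind CACCC boxes in DNA.

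Before the S1P genes, the targeted genes were checked in scaled counts, the unit of the deposited table (read counts divided by 1 factor per library, given as mean ± SD, n = 4, throughout). Klf2 was 7227 ± 2359 in controls and 3354 ± 203 in K2KO, and Klf4 was 9691 ± 2466 in controls and 5819 ± 705 in K4KO. Each was below every control in all 4 libraries of its own knockout (two-sided exact permutation p = 0.0286, the smallest that 4 against 4 allows). In the libraries labelled DKO neither differed detectably from control by this test, with Klf2 at 9066 ± 1538 (exact permutation p = 0.2) and Klf4 at 9447 ± 1898 (p = 0.943), so this group is called DKO-labelled here. By limma Klf2 was higher there by 0.36 on the log2 scale (0.02 to 0.70, unadjusted p = 0.0374, adjusted p = 0.0881), and Klf4 differed by -0.03 (adjusted p = 0.923). In its own knockout Klf2 was called by limma (-1.06, adjusted p = 0.00682), whereas Klf4 was not (-0.71, adjusted p = 0.118). Klf2 was also higher in DKO-labelled libraries than in K2KO (1.42, limma adjusted p = 1.19e-06). Klf4 was likewise higher in DKO-labelled libraries than in K4KO (0.69, limma adjusted p = 0.00102). The table holds 1 value for each gene as a whole, which cannot show the loss of an exon. Depth ran from 21.1 to 106 M reads per library, the highest in DKO-labelled library 4. It was 23.5 to 24.3 M in controls and 21.1 to 25.4 M in K4KO. K2KO libraries held 32.4 to 51.0 M reads and DKO-labelled libraries 25.3 to 106 M. Every K2KO and every DKO-labelled library was thus deeper than every control, and the part of depth in the results was not tested. All 10 endothelial markers were detected in every library, with a summed level of 243788 to 289819 in controls and 291127 to 335109 in DKO-labelled libraries. Within that sum limma called 5 of 10 higher, among them Cdh5 (57222 to 106189), and 3 lower, among them Tek (21621 to 10940) and Kdr (64071 to 44296). The split was 4 and 4 with quantile normalisation and 5 and 1 with the same median, where Kdr was not called (-0.27, adjusted p = 0.178). The DKO-labelled libraries also stood apart in markers of other cells: 13 of 13 cardiomyocyte markers and 7 of 8 erythroid markers were lower than in controls, and none was at 0 in any library. In these bulk samples fewer cells of a type and less RNA per cell cannot be told apart.

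Promoter sequences are shown for Sphk1 and Sgpl1, the members whose levels differed most between groups, because KLF proteins bind the CACCC letters. The windows are the 250 bases before a RefSeq start site (GRCm38.p6), and capitals mark CACCC or, where the letters lie on the other strand, GGGTG. The Sphk1 window is chr11:116532194-116532443 on the forward strand and holds no annotated exon base of Sphk1. The Sgpl1 window is chr10:61147685-61147934 on the reverse strand, where 19 bases are also in a GENCODE first exon.
Sphk1: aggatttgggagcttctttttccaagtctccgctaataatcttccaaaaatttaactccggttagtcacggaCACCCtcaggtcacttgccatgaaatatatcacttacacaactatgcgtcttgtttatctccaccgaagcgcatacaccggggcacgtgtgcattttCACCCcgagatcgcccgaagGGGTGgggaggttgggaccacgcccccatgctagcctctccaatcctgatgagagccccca
Sgpl1: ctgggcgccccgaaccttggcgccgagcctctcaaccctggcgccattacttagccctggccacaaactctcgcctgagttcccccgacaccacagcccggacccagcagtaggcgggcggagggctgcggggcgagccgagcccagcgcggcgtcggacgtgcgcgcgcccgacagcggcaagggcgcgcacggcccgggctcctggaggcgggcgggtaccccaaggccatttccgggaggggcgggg
This Sphk1 window held 3 matches, and the Sgpl1 window held none. Sphk1 had 5 annotated windows in all, of which the most upstream held 0, another held 4 and the remaining 3 held 3 each, with neighbouring windows sharing bases. Of 32851 such windows over all genes, 52.0% held at least 1 match and 6.92% held 3 or more. RefSeq windows were matched for 6 of the 7 members, 11 windows in all: S1pr2 held 1 match, S1pr3 2, the Sphk2 windows 1 and 2, and Spns2 0. These are matches of letters and not evidence of binding.

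The levels of the 7 genes were compared first within each group, as reads per kilobase of exon and per M reads, a scale on which genes of different length can be set side by side. S1pr1 was the most abundant member in every group, at 227 ± 29.6 in controls. In controls it was followed by Spns2 (32.2 ± 6.25), S1pr3 (14.3 ± 1.87), Sgpl1 (5.69 ± 0.638) and Sphk2 (3.33 ± 1.03). At the low end S1pr2 (0.874 ± 0.114) and Sphk1 (0.855 ± 0.292) overlapped, and every other pair of neighbours in the control order was separated in all 4 libraries. S1pr1, Spns2, S1pr3 and Sgpl1 thus each lay above both kinase genes in every control library.

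**Figure D1:**
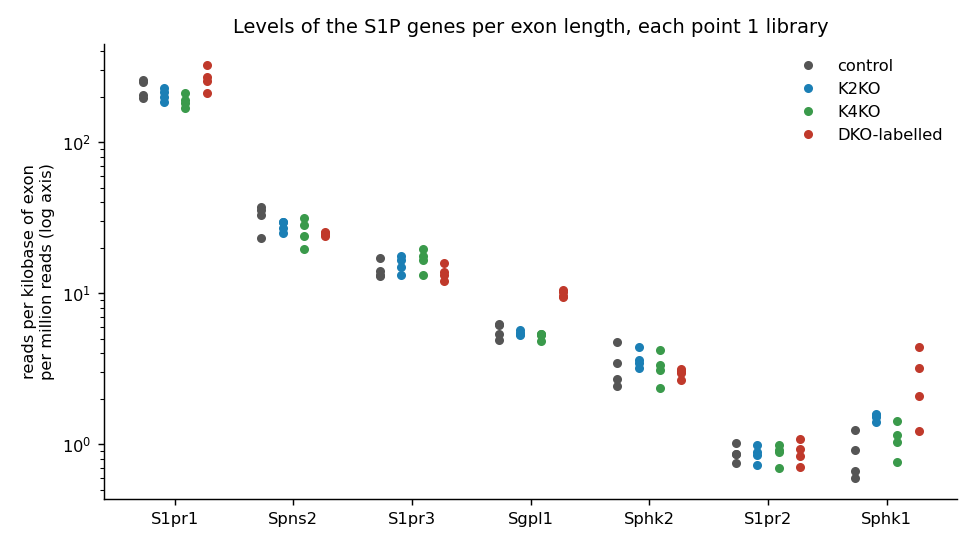
Level of each S1P gene per exon length, in reads per kilobase of exon and per M reads on a log axis, with 1 point per library coloured by group. S1pr1 lay highest in every group, and Sphk1 moved from about the level of S1pr2 in controls (0.855 and 0.874) to 2.74 in the DKO-labelled group.

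The order was largely shared by the 4 groups. In K2KO and in the DKO-labelled group Sphk1 lay above S1pr2 in all libraries, and in the DKO-labelled group the ranges of Sphk1 (2.74 ± 1.39) and Sphk2 (2.97 ± 0.211) overlapped. In K4KO the ranges of Spns2 and S1pr3 overlapped, as did those of Sphk1 and S1pr2. Of the summed level of the 3 receptors, S1pr1 made up 93.7 ± 0.719% in controls, 92.6 ± 1.39% in K2KO, 91.4 ± 1.13% in K4KO and 94.7 ± 0.623% in DKO-labelled libraries. The ratio of Sphk1 to Sphk2 on this scale was 0.275 ± 0.129 in controls, 0.418 ± 0.0537 in K2KO, 0.339 ± 0.0649 in K4KO and 0.903 ± 0.411 in DKO-labelled libraries.

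**Figure D2:**
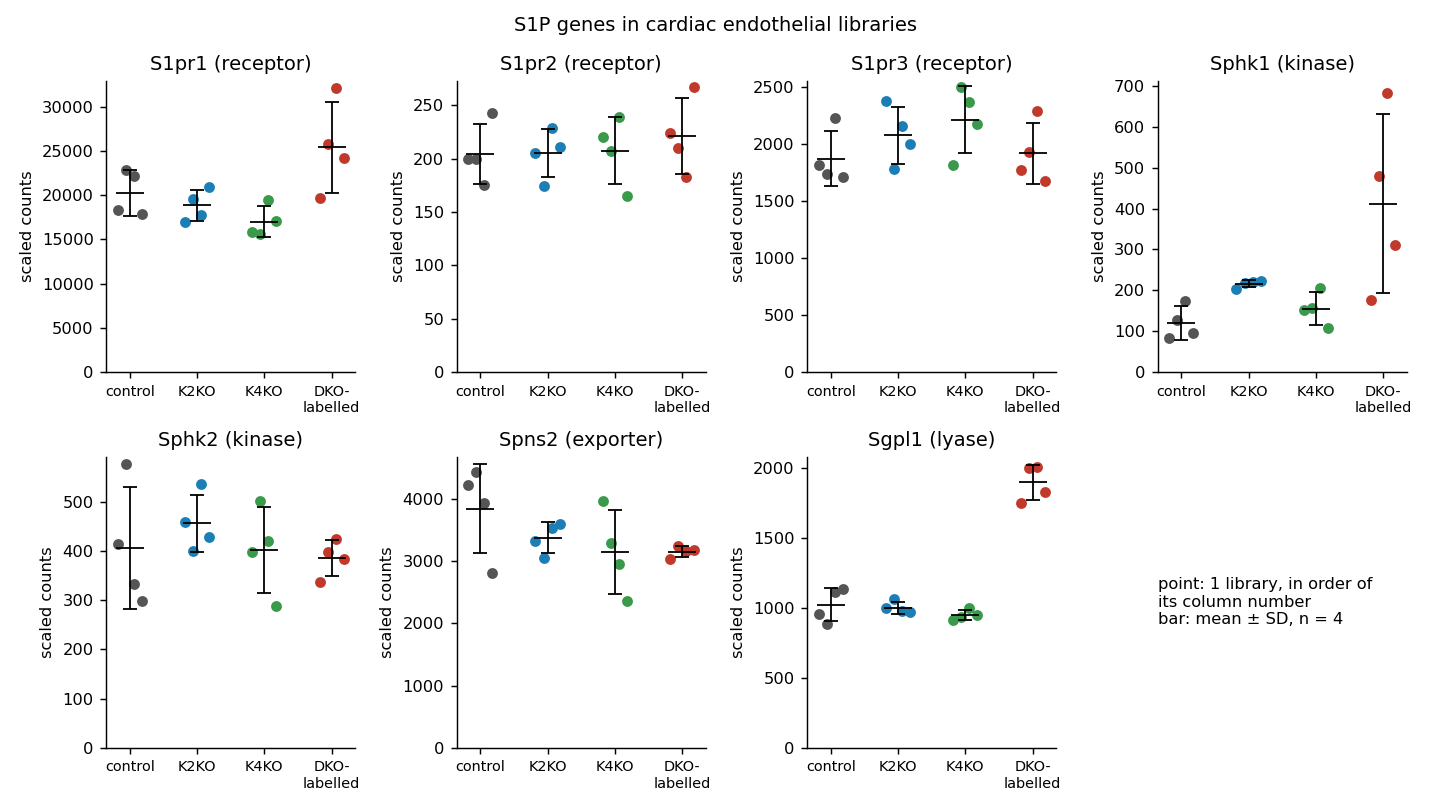
Scaled counts of the 7 S1P genes in each of the 16 libraries, with bars for mean ± SD (n = 4). The 4 DKO-labelled libraries lie above all other libraries for Sgpl1 (1756 to 2009 against at most 1134) and spread widely for Sphk1 (177 to 682).

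None of the 3 receptor genes was called against control by limma in any of the other groups, although DESeq2 called S1pr1 in the DKO-labelled libraries. S1pr1 (ENSMUSG00000045092, GRCm38 chr3:115710433-115715055, reverse strand), the main S1P receptor of endothelium, had scaled counts of 18272, 22844, 22202 and 17854 in control libraries 1 to 4. It had 16982, 19615, 17806 and 20940 in K2KO and 15820, 15624, 19461 and 17072 in K4KO. The DKO-labelled libraries held 19642, 25828, 32066 and 24172, of which 3 lay above every control and the remaining library fell among the controls. The K2KO libraries overlapped the controls, and 3 of 4 K4KO libraries lay below every control.

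On the log2(value + 1) scale S1pr1 differed from control by -0.10 ± 0.13 (SE) in K2KO (95% interval -0.37 to 0.17, limma adjusted p = 0.992), by -0.25 ± 0.13 in K4KO (-0.52 to 0.02, adjusted p = 0.731) and by 0.31 ± 0.13 in DKO-labelled libraries (0.04 to 0.58, adjusted p = 0.0639). None of these passed the threshold of 0.05. The DKO-labelled value passed when libraries were scaled to the same median (0.58, adjusted p = 0.00616), with DESeq2 (0.33, 0.0359), with library quality weights (0.33, 0.0272) and without control 2 (0.37, 0.0433) or DKO-labelled library 2 (0.43, 0.00944). Without DKO-labelled library 4 it was 0.19 (adjusted p = 0.251), and with a cardiomyocyte marker covariate its sign turned (-0.41, adjusted p = 0.677, the highest of the 19 alternatives).

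Set against the single knockouts, S1pr1 was higher in the DKO-labelled libraries. The difference was 0.56 ± 0.13 from K4KO (adjusted p = 0.00153, 4 of 4 libraries above every K4KO library) and 0.42 ± 0.13 from K2KO (adjusted p = 0.0153, 3 of 4 above). The K2KO comparison lost its call without K2KO library 2 (0.37, adjusted p = 0.0541) and without DKO-labelled library 4 (0.30, adjusted p = 0.0693). The interaction, the DKO-labelled minus K2KO difference less the K4KO minus control difference, was 0.67 ± 0.18 (0.29 to 1.05, adjusted p = 0.0100). These contrasts share libraries and are not independent of each other. How many of all genes have every DKO-labelled library above every K4KO library was not counted.

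S1pr3 (ENSMUSG00000067586, chr13:51408618-51422797, forward strand), a receptor also known from vascular smooth muscle, had 1873 ± 241 scaled counts in controls, 2080 ± 251 in K2KO, 2215 ± 296 in K4KO and 1920 ± 270 in DKO-labelled libraries. The 4 groups overlapped. Its log2 difference from control was 0.15 ± 0.12 in K2KO (adjusted p = 0.965), 0.24 ± 0.12 in K4KO (-0.01 to 0.49, adjusted p = 0.719) and 0.03 ± 0.12 in DKO-labelled libraries (-0.22 to 0.29, adjusted p = 0.872). Its interaction was -0.36 ± 0.17 (adjusted p = 0.132) and passed with quantile normalisation (-0.52, adjusted p = 0.0281).

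S1pr2 (ENSMUSG00000043895, chr9:20965952-20976793, reverse strand), a receptor that couples to several classes of G protein, had 205 ± 28.1, 205 ± 22.5, 208 ± 31.7 and 221 ± 35.3 scaled counts in control, K2KO, K4KO and DKO-labelled libraries. Its ranges overlapped in every pair of groups. The log2 difference of DKO-labelled libraries from control was 0.11 ± 0.14 (-0.19 to 0.41, adjusted p = 0.624).

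Of the kinases, Sphk1 (ENSMUSG00000061878, chr11:116530925-116536674, forward strand), the inducible and mainly cytosolic sphingosine kinase, was the most variable member. Its scaled counts were 82.8, 127, 174 and 94.8 in controls and 152, 156, 206 and 108 in K4KO. K2KO held 203, 217, 221 and 223, and the DKO-labelled libraries held 177, 480, 682 and 310. Every K2KO library and every DKO-labelled library lay above every control, whereas K4KO overlapped the controls. How many of all genes separate in this way was not counted, so the separation is not read as particular to Sphk1. The K2KO and DKO-labelled libraries were also all sequenced deeper than every control. The K2KO libraries lay close together (216 ± 9.25) and the DKO-labelled ones far apart (412 ± 218).

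Sphk1 rose 3.45-fold in DKO-labelled libraries over control by group means, a log2 change of 1.67 ± 0.31 (1.02 to 2.31, limma adjusted p = 0.000214, 4 of 4 libraries above every control). In K2KO its value was 0.91 ± 0.31 (0.26 to 1.55), with an unadjusted p of 0.00837 and an adjusted p of 0.478 over 23816 genes, so it was not called. The K2KO adjusted p was between 0.141 and 0.952 in the 19 alternatives. The K4KO value was 0.39 ± 0.31 (-0.25 to 1.04, adjusted p = 0.831).

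Between the DKO-labelled and K4KO libraries Sphk1 differed by 1.27 ± 0.31 (adjusted p = 0.00248). Against K2KO the difference was 0.76 ± 0.31 (0.12 to 1.40, adjusted p = 0.0607) and was not called by limma. It passed with edgeR (0.92, adjusted p = 0.0159), with DESeq2 (0.94, 0.0104), with the same median (1.03, 0.00882), with library quality weights (0.85, 0.0113) and without DKO-labelled library 2 (1.11, 0.00244). Without DKO-labelled library 4 it was 0.46 (adjusted p = 0.241), and with the cardiomyocyte covariate its sign turned (-0.37, adjusted p = 0.925). The interaction of Sphk1 was 0.37 ± 0.43 (-0.54 to 1.28, adjusted p = 0.579).

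Sphk2 (ENSMUSG00000057342, chr7:45709467-45718002, reverse strand), the kinase found largely in the nucleus and at inner membranes, had 406 ± 124, 456 ± 58.2, 402 ± 87.5 and 386 ± 36.7 scaled counts in control, K2KO, K4KO and DKO-labelled libraries, with all ranges overlapping. Its DKO-labelled difference from control was -0.03 ± 0.18 (-0.40 to 0.35, adjusted p = 0.933). Sphk2 shares 539 exon bases with Dbp, a clock output gene on the opposite strand, which fell in DKO-labelled libraries from 3898 ± 811 to 1069 ± 488 (-1.95 ± 0.48, adjusted p = 0.00305). The sources used here do not say whether the counting was stranded, so Sphk2 and Dbp reads in these bases cannot be told apart. The same holds for 373 exon bases that Sphk2 shares with the ribosomal protein gene Rpl18, which stood at 959 ± 187 in controls and 1031 ± 123 in DKO-labelled libraries (0.12, adjusted p = 0.72).

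The exporter gene Spns2 (ENSMUSG00000040447, chr11:72451638-72489904, reverse strand) had 4221, 4432, 3930 and 2809 scaled counts in controls and 3973, 3296, 2958 and 2355 in K4KO. It had 3379 ± 247 in K2KO and 3152 ± 88.8 in DKO-labelled libraries. Control 4 was lower than the other controls and lay below every K2KO and DKO-labelled library, so the groups overlapped. Its cardiomyocyte markers summed to 556810, against 233494, 249473 and 270354 in controls 1 to 3. Whether this bears on its Spns2 value was not tested. The log2 difference from control was -0.17 ± 0.14 in K2KO (adjusted p = 0.967), -0.29 ± 0.14 in K4KO (-0.58 to -0.00, unadjusted p = 0.0467, adjusted p = 0.698) and -0.27 ± 0.14 in DKO-labelled libraries (-0.56 to 0.02, adjusted p = 0.146). The DKO-labelled value passed without control 4 (-0.41, adjusted p = 0.0122), with quantile normalisation (-0.43, 0.0213) and with library quality weights (-0.32, 0.0137), and had an adjusted p of 1 with the same median.

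Spns2 shares 131 exon bases with Mybbp1a on the opposite strand, which rose from 1287 ± 31.9 to 1820 ± 70.4 in DKO-labelled libraries (0.50 ± 0.08, adjusted p = 2.43e-05). Other opposite-strand overlaps were those of Sphk1 with Gm29292 (192 bases, at most 12.5 scaled counts in any library) and of S1pr3 with Gm32834 (45 bases).

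The lyase gene Sgpl1 (ENSMUSG00000020097, chr10:61098642-61147703, reverse strand) gave the clearest separation of the 7. Its scaled counts were 960, 887, 1119 and 1134 in controls, 1001, 1063, 978 and 969 in K2KO and 916, 938, 1001 and 951 in K4KO. The DKO-labelled libraries held 1756, 2004, 2009 and 1830. All 4 DKO-labelled libraries lay above all 12 others, which overlapped among themselves. The share of all genes with such a separation was not counted.

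Sgpl1 rose 1.85-fold in DKO-labelled libraries over control, a log2 change of 0.89 ± 0.08 (0.72 to 1.07, limma adjusted p = 1.1e-07). It differed by 0.92 ± 0.08 from K2KO (adjusted p = 9.47e-08) and by 0.99 ± 0.08 from K4KO (adjusted p = 3.15e-08). In the single knockouts it differed from control by -0.02 ± 0.08 in K2KO (-0.20 to 0.15, adjusted p = 0.995) and by -0.10 ± 0.08 in K4KO (-0.28 to 0.08, adjusted p = 0.835). The interaction was 1.02 ± 0.12 (0.77 to 1.27, adjusted p = 6.85e-06), the DKO-labelled level being higher than the sum of the single differences on the log2 scale.

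**Figure D3:**
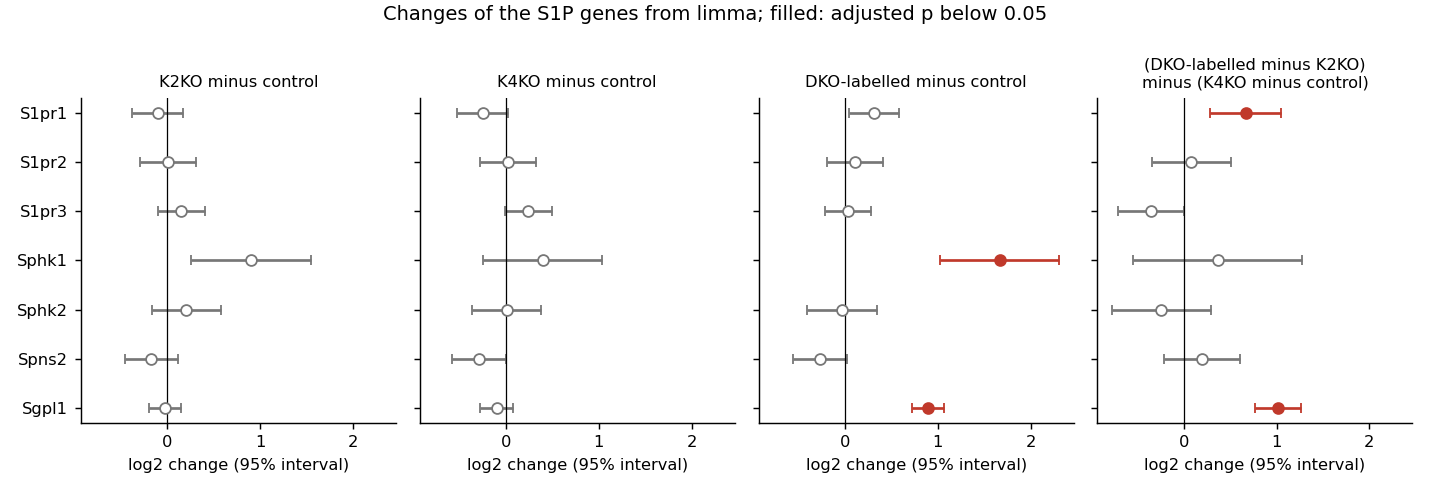
Log2 differences of the 7 genes with 95% intervals from limma, for K2KO, K4KO and DKO-labelled libraries minus control and for the interaction. Filled points have an adjusted p below 0.05: Sphk1 (1.67) and Sgpl1 (0.89) in DKO-labelled libraries, and S1pr1 (0.67) and Sgpl1 (1.02) in the interaction.

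Counted over the system, 2 of 7 members were called in DKO-labelled libraries against control, both higher, where 38.3% of the 23816 genes tested were called and 19.0% were called higher. Against K2KO 2 of 7 were called beside 36.6% of all genes, against K4KO 3 of 7 beside 39.6%, and in the interaction 2 of 7 beside 26.7%. The members' shares are read against these backgrounds and are not a result about the S1P genes as a set. In K2KO 0 of 7 were called by limma (0.168% of all genes), with 1 at an unadjusted p below 0.05, and in K4KO 0 of 7 (0.063% of all genes), also with 1. Control and K4KO libraries of the same number were also compared pair by pair, although the labels do not state that they are pairs. In 4 of 4 pairs the K4KO library was higher for Sphk1 and S1pr3 and lower for S1pr1 and Spns2. The share of all genes that go 1 way in every pair was not counted, so this is not read as a result about these members. With the pairs as a block these log2 differences were 0.39 for Sphk1 (adjusted p = 0.665), 0.24 for S1pr3 (0.66), -0.25 for S1pr1 (0.651) and -0.29 for Spns2 (unadjusted p = 0.00433, adjusted p = 0.455), and 0 of 7 members were called. Between K2KO and K4KO 0 of 7 were called (0.445% of all genes), with 0 at an unadjusted p below 0.05. edgeR and DESeq2 called 0 members in these 3 comparisons. The authors' deposited table gave adjusted p-values of 4.58e-08 for Sgpl1, 0.00638 for Sphk1 and 0.105 for S1pr1 in DKO against control, and 1 for each of them in both single knockouts.

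The scaling of the libraries sets the centre of these comparisons. Over all genes the median log2 difference between DKO-labelled and control libraries was -0.03 as deposited and 0.18 after scaling to the same median, and 49.7% and 70.4% of called genes were higher. Sphk1 (1.93) and Sgpl1 (1.16) stayed well above that shift, and S1pr2 passed the threshold (0.37, adjusted p = 0.0486 against 0.968 at most over its alternatives).

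Cardiomyocyte markers moved with the DKO-labelled calls. Their summed level was 52593 to 89201 in DKO-labelled libraries against 233494 to 556810 in controls, 245728 to 390463 in K2KO and 275740 to 506081 in K4KO, so the DKO-labelled range did not overlap the others. The covariate was the mean log2(value + 1) of these markers, not their sum. With it in the limma fit Sgpl1 differed from control by 0.997 (adjusted p = 0.0547), Sphk1 by 0.57 (adjusted p = 0.856) and S1pr1 by -0.41 (adjusted p = 0.677). Calls over all genes went from 9119 to 557. Because the ranges of the sum do not overlap, the group and the level of these markers cannot be told apart in these data. Erythroid markers summed to 3961 to 6792 against 18178 to 23850 in controls, mural cell markers to 77205 to 94411 against 124191 to 133469 and lymphocyte markers to 482 to 591 against 1200 to 1588, and their part in the results was not tested.

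Within the DKO-labelled group S1pr1 and Sphk1 ranked the libraries alike. Both were lowest in library 2 and highest in library 4, the library with 106 M reads against 25.3 to 29.3 M in the other 3. Sgpl1 and Sphk2 had the same order, whereas S1pr2 was lowest in library 4. Without library 4 the Sphk1 difference from control was 1.37 (adjusted p = 0.000846) and that of Sgpl1 was 0.87 (adjusted p = 7.77e-07).

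**Figure D4:**
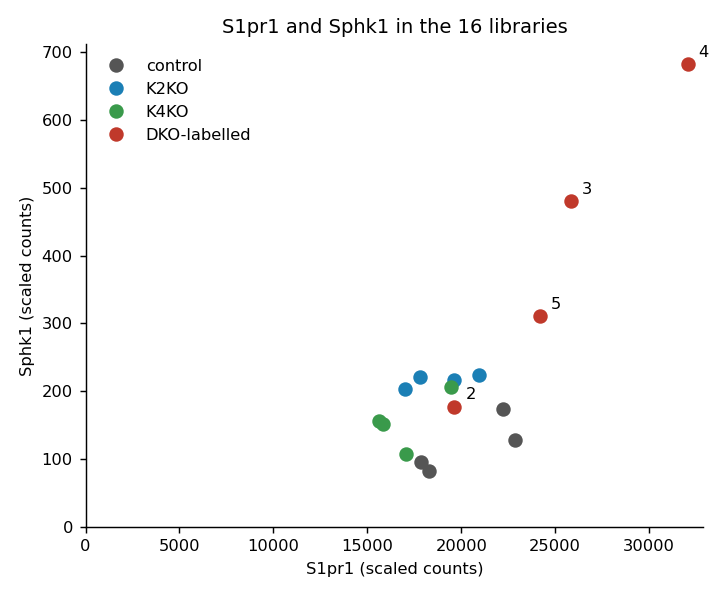
Scaled counts of Sphk1 against S1pr1, 1 point per library coloured by group, with the DKO-labelled libraries numbered. The DKO-labelled libraries spread from 19642 and 177 in library 2 to 32066 and 682 in library 4, and library 2 lies among the other groups.

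Genes with the most similar pattern were sought among 10854 genes with a mean of at least 100, by Pearson correlation of log2 values over the 16 libraries. These are descriptions without a test, since the libraries share the difference between the DKO-labelled group and the rest. Sgpl1 was closest to Plau, encoding urokinase (r = 0.987), Tor1aip2 (0.986) and the receptor tyrosine kinase gene Kit (0.986). Sphk1 was closest to Maff, a small Maf transcription factor (0.957), and S1pr1 to Stc1, encoding stanniocalcin-1 (0.926). Over deviations from the group means, which leave out that difference, Sphk1 was closest to Cebpd (0.964), a transcription factor gene of acute responses, to Slc10a6 (0.960) and to the growth factor gene Pgf (0.959). On the same measure S1pr1 was closest to the kinase gene Sgk1 (0.930) and to Ctgf (0.911), Sgpl1 to Kit (0.909) and Spns2 to Fam129b (0.979).

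The wider S1P and sphingolipid machinery was described with 9 lists of 79 genes, of which 77 were tested. In DKO-labelled libraries against control 33 were higher and 15 lower (62.3% called, against 38.3% of all genes), with a median log2 difference of 0.19 against -0.03 over all genes. The lists hold few genes of low level, and among genes with a mean of at least 5 the shares were 66.7% of 72 list genes and 54.2% of 16904 genes. With edgeR 66.2% of 71 list genes and 57.0% of 15694 genes were called. The counts of each list below stand beside 19.0% of all genes called higher and 38.3% called either way, and none is read as particular to its list. Scaled to the same median 42 were higher and 10 lower, and with quantile normalisation 27 and 16. In K2KO and in K4KO against control 0 of 77 were called by limma, with 8 and 6 at an unadjusted p below 0.05. edgeR called 0 in either, and DESeq2 called 0 in K2KO and 1 in K4KO. Between K2KO and K4KO 1 was called, Grk5, a kinase that desensitises receptors.

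**Figure D5:**
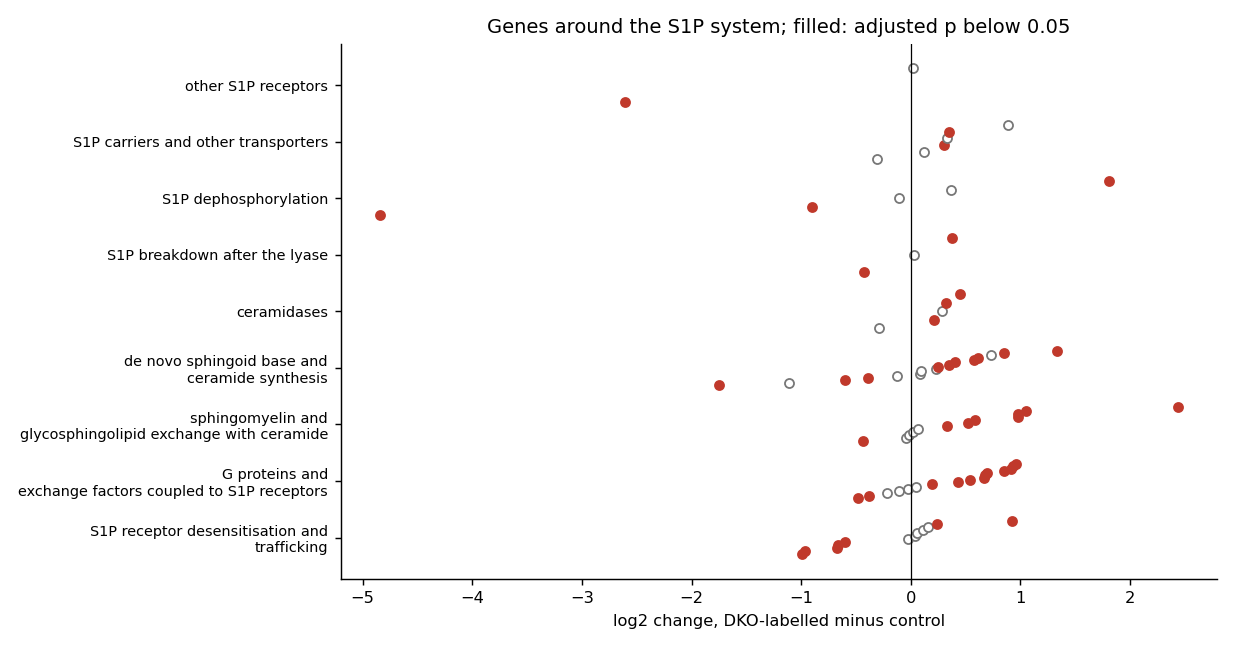
Log2 difference of DKO-labelled minus control libraries for the 77 tested genes around the S1P system, 1 point per gene, in 9 lists. Filled points have an adjusted p below 0.05, from -4.84 for Sgpp2 to 2.43 for Sgms2.

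Of the other S1P receptors, S1pr4, known from lymphocytes, fell from 140 ± 59.2 to 22.3 ± 10.6 scaled counts in DKO-labelled libraries (-2.61, adjusted p = 5.19e-06). Beside it 5 of 11 lymphocyte markers were called lower, all 5 known from B cells. In the same libraries 1 of the 11 was called higher, Klrb1c of natural killer cells, at 4.65 in controls and 67.9 in DKO-labelled libraries (3.95, adjusted p = 9.71e-05). Nkg7, also known from natural killer cells, went the other way without a call, from 3.39 to 0.846 (-1.25, limma adjusted p = 0.155). Cd3e (-0.93), Cd3d (-0.54) and Cd8a (-0.46) were lower without a call, and Cd4 was not lower (0.06). S1pr5 had few counts, 3.99 ± 2.09 and 4.18 ± 2.19. Among 6 carriers and other transporters 2 rose, the ABC transporter genes Abcc1 (0.35, adjusted p = 0.00123) and Abca1 (0.30, adjusted p = 0.0108). Mfsd2b, the S1P exporter of red cells and platelets, was 126 ± 19.9 in controls and 160 ± 30.7 in DKO-labelled libraries (adjusted p = 0.124), while 7 of 8 erythroid markers were lower.

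S1P phosphatase genes moved in both directions, with 1 of 5 higher and 2 lower. Sgpp2, an S1P phosphatase of the endoplasmic reticulum, fell from 66.6 ± 12.1 to 2.84 ± 4.78 (-4.84, adjusted p = 5.07e-07). Plpp3, a lipid phosphate phosphatase of the cell surface listed as Ppap2b, fell from 15384 ± 1857 to 8180 ± 438 (-0.90, adjusted p = 3.91e-07). Plpp2, listed as Ppap2c, rose from 52.5 ± 8.20 to 186 ± 30.7 (1.81, adjusted p = 5.82e-07). Sgpp1 stood at 960 ± 63.6 and 889 ± 34.2 (adjusted p = 0.383). The list's median difference was -0.11 and turned to 0.16 when scaled to the same median.

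Past the lyase step 1 of 3 genes rose and 1 fell: Aldh3a2, the aldehyde dehydrogenase that takes up the lyase product hexadecenal (0.38, adjusted p = 0.000255), and Pcyt2, of phosphatidylethanolamine synthesis (-0.43, adjusted p = 0.00149). Etnk1 was 0.03 (adjusted p = 0.854). Of 5 ceramidase genes, which release sphingosine from ceramide, 3 rose and 0 fell: Asah2 (0.45, adjusted p = 0.000871), Acer3 (0.33, 0.0143) and Asah1 (0.21, 0.0228).

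In de novo synthesis of sphingoid bases and ceramide 7 of 16 tested genes rose and 3 fell, where 38.3% of all genes were called. Rtn4, encoding Nogo, whose B form restrains serine palmitoyltransferase in endothelium, rose from 4745 ± 247 to 11928 ± 287 (1.33, adjusted p = 6.35e-10). Degs1, the dihydroceramide desaturase gene, rose from 2182 ± 123 to 3934 ± 256 (0.85, adjusted p = 1.7e-08), and the ceramide synthase gene Cers2 from 2486 ± 146 to 3792 ± 105 (0.61, adjusted p = 5.34e-07). Of 12 genes that exchange ceramide with sphingomyelin and glycosphingolipids, 7 rose and 1 fell. Sgms2, a sphingomyelin synthase gene, rose from 109 ± 7.13 to 603 ± 108 (2.43, adjusted p = 1.48e-10). The glucosylceramide synthase gene Ugcg (1.05, adjusted p = 3.61e-07) and the ceramide kinase gene Cerk (0.98, adjusted p = 2.28e-07) also rose.

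Downstream of the receptors, 10 of 16 genes for G proteins and exchange factors rose and 2 fell, beside 19.0% of all genes called higher. Gna13, a G protein alpha subunit gene, rose from 3456 ± 272 to 6545 ± 980 (0.91, adjusted p = 7.67e-07), and Gnai3, an inhibitory G protein gene, from 4695 ± 308 to 7460 ± 252 (0.67, adjusted p = 2.85e-06). Of 12 genes of receptor desensitisation and trafficking 2 rose and 5 fell. The receptor kinase gene Grk3, listed as Adrbk2, fell by 0.96 (adjusted p = 5.55e-06), and the G protein regulator genes Rgs3 and Rgs5 each fell by 0.67. Rgs5 is also a mural cell marker and by itself a large part of the mural sum, at 72623 in controls and 45645 in DKO-labelled libraries. The lower mural sum is therefore not separate from the fall of Rgs5. Among the other mural markers the means of Kcnj8 (1477 to 1525) and Abcc9 (8117 to 8853) were not lower, and those of the rest were. The medians of the lyase-product list (0.03) and of the desensitisation list (0.01) turned to -0.15 and -0.14 with quantile normalisation, and the medians of the 6 lists apart from these and the phosphatases kept their sign under both other scalings.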

How the data were processed

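The authors deposited a scaled signal that is never negative. That it holds gene read counts divided by 1 factor per library was inferred here from the values. All values were whole multiples of a step within 0.001 reads (100%), which gave back 21.1 to 106 M reads per library at 0.305 to 1.46 scaled counts per read. The authors also deposited a ratio (fold) and p-values for 6 comparisons. The submitters' processing notes name TopHat, Cuffdiff and GRCm38, without versions. The design assumed normalised values, so limma was kept as the main test.

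The 23816 genes that reached a value of 1 in 4 or more libraries were fitted as log2(value + 1) with limma 3.58.1 (R 4.3.3, trend), all 16 libraries and 4 group means, with Benjamini-Hochberg adjustment within each of 7 comparisons. A log2 change on this scale understates that of low genes. edgeR 4.0.16 and DESeq2 1.42.0 were run on the recovered counts as alternatives, beside a pseudocount of 0.1, other filters and scalings, robust limma, quality weights, a cardiomyocyte marker covariate, a replicate block and leaving out each library. The fit was also run on simulated data with few changed genes and the same dispersion for every gene. These settings differ from the DKO-labelled comparison, so nothing is concluded from that run. Exon lengths came from GENCODE M21, which may not be the authors' annotation.

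K2KO and DKO columns are numbered 2 to 5 and the titles from 1, so they were tied to their group only, and a library number there is a column number. Libraries are described as separate pools of mice, with no other detail. Control and K4KO libraries of the same number deviated together (r = 0.141, 0.219, 0.257 and 0.523 over genes; number 2 had a higher r, 0.399, with another number), so they were treated as paired in an alternative. Members and lists were chosen with earlier results of these data known. Genes named were the 7 members, Klf2 and Klf4, up to 3 genes per list, those of smallest p between DKO and control, list genes called in a single knockout, and the 3 genes most like each member. Sgpp1, Grk5, Dbp, Mybbp1a, Rpl18, Gm29292, Gm32834, Cdh5, Tek, Kdr and Klrb1c were named after their values were seen. So were Nkg7, Cd3e, Cd3d, Cd8a and Cd4. The text does not name every gene taken by this rule, and 1 of them is not reported.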

Additional observations from a re-analysis of the deposited data

Results flagged for a closer look

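The difference between DKO-labelled and K2KO libraries was not the same as that between K4KO and control libraries for 2 members, by the interaction contrast in limma. For Sgpl1 the interaction was 1.02 on the log2 scale (adjusted p = 6.85e-06), from 1003 ± 42.3 in K2KO to 1900 ± 127 in DKO-labelled libraries, against 1025 ± 121 in control and 952 ± 36.0 in K4KO. For S1pr1 it was 0.67 (adjusted p = 0.0100), from 18836 ± 1783 to 25427 ± 5141, against 20293 ± 2594 and 16994 ± 1765. No library stood apart within its group for any of the 7 members by Dixon's test. Neither Klf2 nor Klf4 was detectably lower in the DKO-labelled libraries than in controls, so these values describe the libraries labelled so.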

How the results depend on the processing

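Over the alternatives run, 638 values kept their direction and side of the threshold and 41 changed sign. Of those that kept their sign, 15 passed the threshold anew and 8 no longer did. The values of S1pr1 against K2KO, against K4KO and in the interaction changed sign with the cardiomyocyte covariate. They lost their call as well, and are counted among the sign changes only. Members called in DKO-labelled libraries against control went from 2 to 4 with the same median or with library quality weights, and to 0 with the cardiomyocyte covariate, under which the 2 called against K2KO, the 3 against K4KO and the 2 of the interaction also went to 0. Under it Sgpl1 lost its call but not its size, at 1.02 against K2KO (adjusted p = 0.0751), 1.11 against K4KO (0.0701) and 1.13 in the interaction (0.128), beside 0.92, 0.99 and 1.02 without it. Against K2KO the count was 4 with the same median and 1 to 3 with a library left out. The cause was not tested. With the covariate the sign turned for S1pr1 against control (-0.41), K2KO (-0.33) and K4KO (-0.23) and in the interaction (-0.14), for Sphk1 against K2KO (-0.37) and in the interaction (-0.86), for Spns2 in the interaction (-0.57), and for S1pr2 in K2KO (-0.0014) and K4KO (-0.0057). With the same median it turned for Sphk2 in DKO-labelled libraries (0.24), K4KO (-0.039) and the interaction (0.077), and for S1pr2 in K2KO (-0.0031) and K4KO (-0.027). It also turned for S1pr3 in DKO-labelled libraries with quantile normalisation (-0.11), for Sphk2 in K4KO with edgeR (-0.011) and DESeq2 (-0.014), and with quality weights for Sgpl1 in K2KO (0.0045) and S1pr2 in the interaction (-0.0042). Leaving out a library moved values through 0 for S1pr3 (-0.055 to 0.12) and Sphk2 (-0.16 to 0.16) in DKO-labelled libraries, S1pr2 (-0.064 to 0.092) and Sgpl1 (-0.091 to 0.026) in K2KO, S1pr2 (-0.054 to 0.13) and Sphk2 (-0.13 to 0.19) in K4KO, and S1pr2 in the interaction (-0.024 to 0.17). None of these values was called in the main fit except those of S1pr1 against K2KO and K4KO and in the interaction. Genes called over the whole table went from 9119 to 557 against control, from 8717 to 287 against K2KO, from 9420 to 253 against K4KO and from 6352 to 7 in the interaction with the covariate. In K2KO 40 became 24 without a filter, 63 with only the groups compared, 10 with robust limma, 158 with quality weights, 123 with DESeq2 and 13 to 137 with a library left out. In K4KO 15 became 8, 2, 2 and 80 without a filter, with only the groups compared, with robust limma and with DESeq2, 7 with the covariate and 4 to 14 with a library left out. Between K2KO and K4KO 106 became 38 with robust limma, 296 with DESeq2 and 54 to 211 with a library left out. With the replicate number as a block for control and K4KO, calls went from 15 to 14 and 0 of 7 members changed their call. Depth limits Sphk1 and S1pr2 most, with as few as 67 and 130 reads in a library.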
